A study of Mus musculus with 22 samples.

Results

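DNA replication genes were described across pancreatic islet and tumour samples of RIP1-Tag2 (RT2) mice. They were 36 listed genes of origin licensing, the replicative helicase, the polymerases, the sliding clamp, strand joining, nucleotide supply and chromatin assembly. All 36 of 36 had a probe set with 1 gene symbol, among 19938 genes measured on Affymetrix Mouse Gene ST arrays. In the RT2 strain the insulin promoter drives the large T antigen of simian virus 40 in beta cells. Its islets first overgrow, then attract vessels, and some become neuroendocrine tumours. The tissue labels gave 3 normal, 3 hyperplastic and 3 angiogenic islet samples, 5 islet tumours, 5 metastasis-like primary tumours and 3 liver metastases, 1 array each. All 22 samples, the normal islets included, carry the RIP1-Tag2 genotype in their labels, and no age or treatment is given. The labels do not state how a primary tumour came to be called metastasis-like. Samples are named by their titles (NormalI-93, Normal2006 and Normal2007 for the normal islets, with the same codes for the other islets). Tumours have a prefix I, II or III and a number, and all 3 metastases carry prefix I. Separate animals or pools are not named, so p-values reflect only the spread among these samples, which may be technical.

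A cell copies its genome once per division. The origin recognition complex with Cdc6 and Cdt1 loads the Mcm2 to Mcm7 ring onto DNA, and Cdc45 and the GINS complex join the ring to form the active helicase. DNA polymerase alpha with primase lays down primers, polymerases epsilon and delta extend them, and the clamp Pcna, loaded by the Rfc complex, holds the polymerases on DNA. Fen1 and Lig1 trim and join the lagging strand pieces, ribonucleotide reductase and thymidylate enzymes supply the nucleotides, and the CAF-1 complex puts histones on the new DNA. In adult islets few beta cells divide, and genes of this kind are known targets of E2F transcription factors, which the retinoblastoma proteins hold back. Large T antigen is known to bind those proteins.

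Promoter sequences are shown because the members moved together and because E2F binding is the textbook feature of such genes. RefSeq promoter windows of 300 bases (250 before to 50 after the start, mouse build GRCm38.p6) were held for 29 of the 36 members. The E2F motif, spelled TTTCGCGC or TTTGGCGC and read on both strands, lay in 9 of the 29 windows (31.0%), against 251 of 27025 genes with a window (0.93%) and 204 of 15614 genes measured on the arrays (1.31%). The 9 were Mcm3, Mcm5, Mcm6, Mcm7, Cdt1, Orc1, Pola1, Rfc3 and Lig1. The CHR motif of cell cycle genes, spelled TTTGAA or TTCGAA and read on both strands, lay in 6 of the 29 windows (20.7%), against 21.66% of all genes and 19.05% of the measured genes. A match is a description of letters, not of binding. The stretches below lie upstream of the start, run along each gene's strand and have the E2F letters in capitals. Those of Mcm5 (chr8:75109314-75109413, plus strand), Mcm6 (chr1:128359758-128359857, minus strand), Orc1 (chr4:108579381-108579453, plus strand), Pola1 (chrX:93632240-93632339, minus strand) and Rfc3 (chr5:151651209-151651264, minus strand) are given.
Mcm5: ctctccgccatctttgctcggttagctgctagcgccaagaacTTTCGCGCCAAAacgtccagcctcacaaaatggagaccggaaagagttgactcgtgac
Mcm6: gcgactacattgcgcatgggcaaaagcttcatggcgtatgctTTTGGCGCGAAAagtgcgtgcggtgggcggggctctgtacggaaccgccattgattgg
Orc1: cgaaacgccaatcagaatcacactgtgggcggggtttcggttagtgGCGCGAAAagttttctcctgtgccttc
Pola1: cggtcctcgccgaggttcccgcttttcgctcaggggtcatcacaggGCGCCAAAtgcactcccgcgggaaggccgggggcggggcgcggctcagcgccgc
Rfc3: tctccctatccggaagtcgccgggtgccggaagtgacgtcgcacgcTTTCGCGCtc
In Mcm5 and Mcm6 the capitals hold 2 motifs, 1 on each strand, that overlap. The Mcm6 window held 3 in all. In Mcm3, Mcm7, Cdt1 and Lig1 the motif lay after the start.

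The deposited values are log2 intensities with array medians of 7.08 to 7.22. Precision depends on how many arrays a group has and on their spread. The mean of 8 beta cell markers lay between 11.39 and 11.64 in normal and hyperplastic islets, between 11.09 and 11.37 in angiogenic islets and between 10.48 and 11.05 in islet tumours. It lay between 8.63 and 9.23 in metastasis-like primaries and between 9.22 and 9.77 in liver metastases. Xist, transcribed from the silenced X chromosome of female cells, stood between 10.67 and 11.41 in the 9 islet samples. It stood between 5.33 and 6.46 in the 13 others, so sex and the step to tumours cannot be told apart. The other measured sex genes are Y-linked. They were called higher in islet tumours than in normal islets, and were not called against angiogenic islets. The mean over Xist and these genes was 8.92, 6.71 and 8.59 in NormalI-93, Normal2006 and Normal2007. It was 8.02 to 8.80 in hyperplastic islets. This mean joins Xist with Y-linked genes, so it does not give the sex of a sample. Xist was high in all 9 islet samples, so the low mean of Normal2006 came mainly from the Y-linked genes. The normal islets thus differed among themselves, and whether islet samples held RNA of both sexes was not tested. The mean of 7 hepatocyte markers stood at 10.97 to 11.41 in liver metastases and at 7.17 to 8.04 in the primary tumours of both kinds. The mean of 7 acinar markers stood at 9.59 to 10.60 in liver metastases, at 10.59 to 12.71 in metastasis-like primaries and at 11.78 to 12.34 in islet tumours.

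Normal islets held the lowest level of every member. For all 36 members the 3 normal islet arrays lay below all 19 other arrays, a pattern that 5.44% of all genes showed. The mean over the 36 genes was 8.07, 7.48 and 7.20 in the normal islets. It was 8.95, 8.94 and 8.97 in hyperplastic islets, and 9.07, 9.12 and 9.09 in angiogenic islets. It ran from 9.0 to 9.24 in islet tumours, from 8.87 to 9.48 in metastasis-like primaries and from 9.38 to 9.45 in liver metastases. One large step thus lay between the normal islets and everything else, with small differences after it. Liver metastases had the highest group mean for 30 members, angiogenic islets for 3 (Gins3, Orc6 and Fen1), metastasis-like primaries for 2 (Gins4 and Pola2) and islet tumours for 1 (Rfc5). The widest span between group means was that of Rrm2 (3.07 log2), followed by Pole (2.86) and Rfc4 (2.80), and the narrowest that of Gins4 (0.71).

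**Figure D1:**
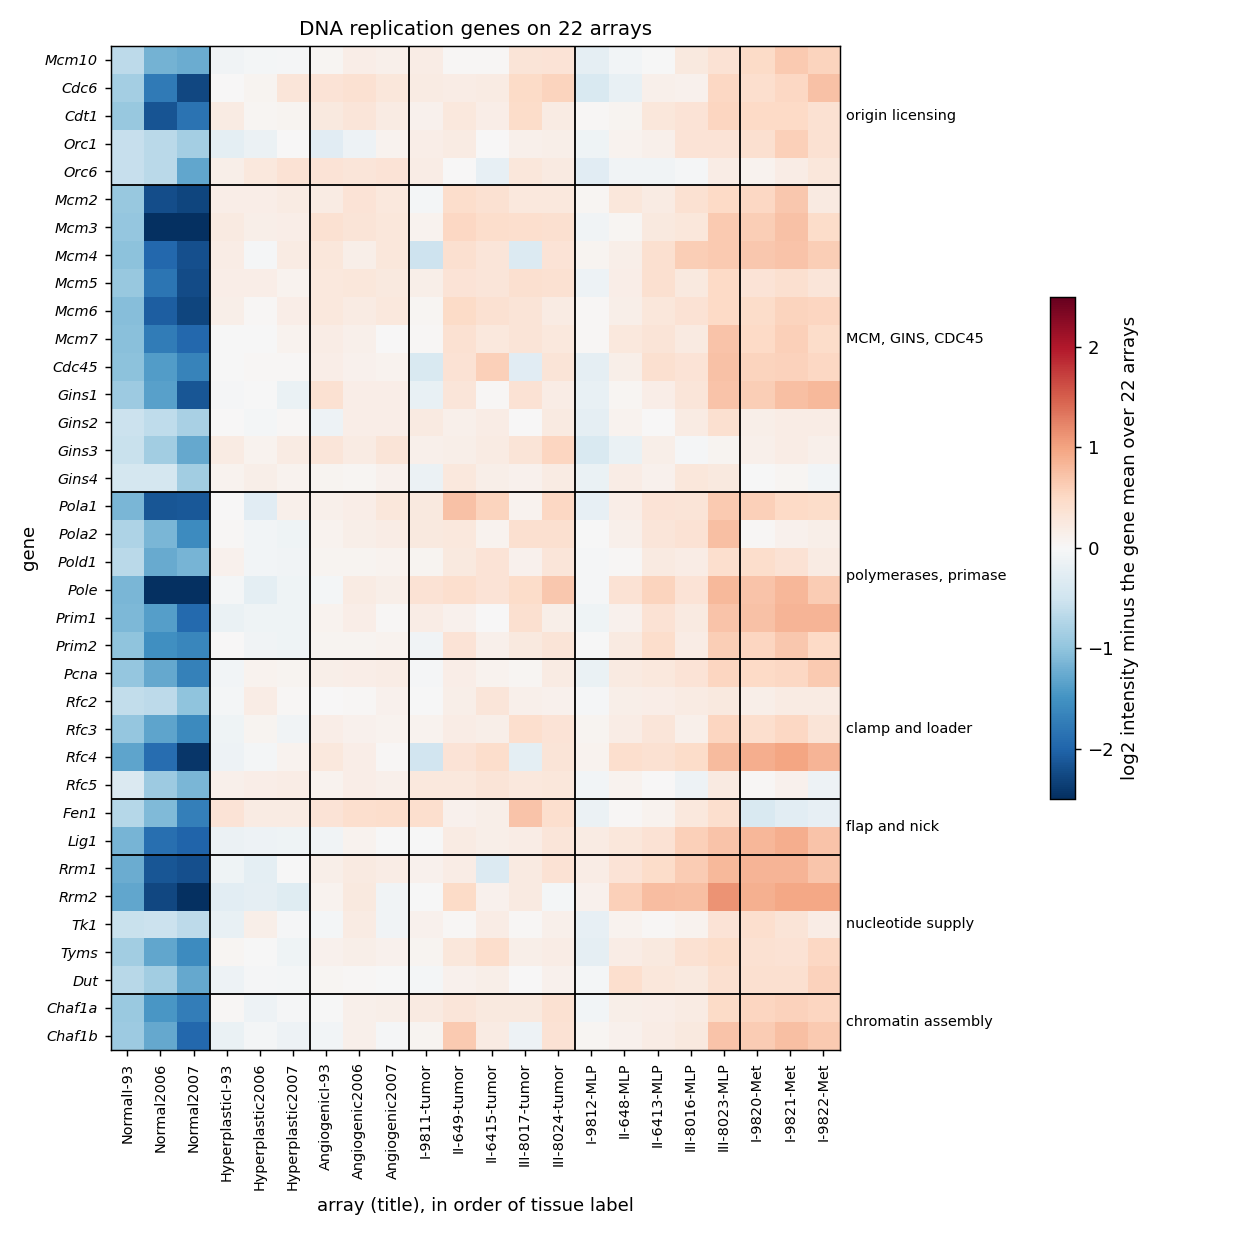
Levels of the 36 DNA replication genes (down, grouped by role) on the 22 arrays (across, in order of tissue label), as log2 intensity minus the gene's mean over the 22 arrays, blue for lower and red for higher. The 3 normal islet arrays are the lowest for every gene, NormalI-93 the highest of them for 34 genes, and the liver metastases have the highest group mean for 30 of the 36.

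Between hyperplastic and normal islets (3 against 3 arrays), the step to islet overgrowth, all 36 members were called higher at a limma adjusted p under 0.05. Over all 19938 genes, 4.46% were called higher and 4.17% lower. Higher genes were 51.7% of all calls, and 37.9% with the arrays centred on their medians. The members' median difference was 1.35 log2, with a range of 0.57 to 2.28, while the median over all genes was -0.01. RNA of whole islets was measured, so more dividing cells and more of these transcripts per cell cannot be told apart.

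The helicase genes had a median difference of 1.61 log2 over 11 genes and included the largest one. Mcm3, a subunit of the Mcm2 to Mcm7 ring, stood at 9.62, 9.55 and 9.56 in the hyperplastic islets and at 8.43, 6.70 and 6.75 in the normal islets (NormalI-93, Normal2006 and Normal2007). The hyperplastic values lay close together, and the normal ones were spread by more than 1 log2. It rose 4.87-fold (2.28 ± 0.28 log2, SE, adjusted p = 1.66e-05). Its ring partners Mcm2 (2.01 ± 0.23), Mcm6 (1.91 ± 0.20), Mcm4 (1.84 ± 0.25), Mcm5 (1.81 ± 0.20) and Mcm7 (1.61 ± 0.17) rose too. Each SE and p-value in this text pools the spread over all 6 groups. Mcm3 had an SD of 0.98 in normal islets and 0.04 in hyperplastic islets. For most members the normal islets spread more than the pooled value, so comparisons with them look more precise than those arrays alone allow. Mcm6 had 10.21, 10.09 and 10.24 in hyperplastic islets and 9.01, 8.0 and 7.77 in normal islets. Cdc45, which joins the ring at firing origins, rose by 1.38 ± 0.22. The 4 GINS subunits differed in size, with Gins1 at 1.40 ± 0.22, Gins3 at 1.06 ± 0.15, Gins4 at 0.70 ± 0.12 and Gins2 at 0.66 ± 0.12.

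All 5 licensing genes rose as well, by 0.57 to 1.76 log2. Cdc6, the ATPase that helps load the ring, had 7.98, 8.04 and 8.26 in hyperplastic islets and 7.11, 6.19 and 5.68 in normal islets, a rise of 1.76 ± 0.25 log2 (adjusted p = 4.22e-05). Its partner Cdt1 rose by 1.75 ± 0.19, the origin complex subunit Orc6 by 1.10 ± 0.15 and the initiation factor Mcm10 by 0.96 ± 0.14. Orc1, the origin complex ATPase, had 5.89, 5.98 and 6.13 in hyperplastic islets and 5.55, 5.46 and 5.28 in normal islets. Its rise of 0.57 ± 0.12 (adjusted p = 0.00228) was, with that of Tk1, the smallest of the 36.

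All 6 polymerase and primase genes rose by at least 1.02 log2. Pole, the catalytic subunit of the leading strand polymerase epsilon, stood at 8.49, 8.29 and 8.43 in hyperplastic islets and at 7.39, 6.04 and 5.81 in normal islets. The groups did not overlap, and the rise was 3.97-fold (1.99 ± 0.26 log2, adjusted p = 2.48e-05). The polymerase alpha catalytic subunit Pola1 rose by 1.75 ± 0.22 and its partner Pola2 by 1.12 ± 0.17. Prim1 and Prim2, the small and large primase subunits, rose by 1.36 ± 0.17 and 1.32 ± 0.15. The polymerase delta catalytic subunit Pold1 had the smallest rise of the 6 (1.02 ± 0.13).

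Pcna, the clamp, stood at 10.97, 11.12 and 11.09 in hyperplastic islets and at 10.06, 9.75 and 9.35 in normal islets, a 2.53-fold rise (1.34 ± 0.15 log2, adjusted p = 8.37e-06). A second Pcna probe set gave nearly the same means, 11.05 in hyperplastic and 9.71 in normal islets. Among the subunits of the clamp loader, Rfc4 rose most (1.85 ± 0.23), followed by Rfc3 (1.25 ± 0.13), Rfc5 (0.96 ± 0.13) and Rfc2 (0.82 ± 0.10). The ligase Lig1 rose by 1.56 ± 0.16 and the flap nuclease Fen1 by 1.43 ± 0.19. The CAF-1 subunits Chaf1a and Chaf1b rose by 1.33 ± 0.14 and 1.27 ± 0.20.

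Both ribonucleotide reductase genes rose. Rrm2, the small subunit whose level follows S phase, had 9.23, 9.27 and 9.19 in hyperplastic islets and 8.19, 7.22 and 6.69 in normal islets. That was a rise of 1.87 ± 0.26 log2 (adjusted p = 3.83e-05), beside 1.74 ± 0.20 for the large subunit Rrm1. Thymidylate synthase (Tyms) rose by 1.22 ± 0.15 and the dUTPase gene Dut by 0.87 ± 0.12. Thymidine kinase 1 (Tk1) rose by 0.57 ± 0.11 (adjusted p = 0.00182), with 8.25, 8.58 and 8.39 in hyperplastic islets and 7.86, 7.89 and 7.77 in normal islets. Its second probe set averaged 7.59 in hyperplastic and 6.98 in normal islets.

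Of 52 measured genes on a list of other replication factors, 35 were called higher in hyperplastic than in normal islets and 2 lower, with a median of 0.71 log2. The histone chaperone Asf1b rose by 1.99 ± 0.22, the nuclease and helicase Dna2 by 1.71 ± 0.18, the origin-firing kinase Cdc7 by 1.42 ± 0.15 and the maintenance methyltransferase Dnmt1 by 1.21 ± 0.14. The 2 called lower, named after their values were seen, were Tk2, the mitochondrial thymidine kinase (-0.45 ± 0.12, adjusted p = 0.0202), and Rrm2b, the p53-inducible reductase subunit (-0.45 ± 0.13, adjusted p = 0.0331). Rrm2b had 8.19, 7.99 and 7.95 in hyperplastic islets and 8.50, 8.45 and 8.53 in normal islets. It moved opposite to Rrm2, its S phase counterpart. Of 10 listed regulators, 5 were called higher: the repressive E2F genes E2f8 (2.07 ± 0.29) and E2f7 (1.57 ± 0.18), the retinoblastoma relative Rbl1 (1.31 ± 0.15), Mybl2 (0.77 ± 0.14) and E2f1 (0.56 ± 0.14). All 7 measured proliferation markers rose, with a median of 2.12 log2.

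All 36 calls held in each alternative that tested the gene (highest adjusted p 0.0238), yet the 3 normal arrays differed among themselves. NormalI-93 was the highest of the 3 for 34 members (94.4%, against 27.0% of all genes), by a median of 0.66 log2 over the mean of the other 2 and by 1.71 for Mcm3. Normal2007 was the lowest for 32 (88.9%, against 32.5% of all genes). The median member SD was 0.41 log2 in normal islets, against 0.07 in hyperplastic and 0.06 in angiogenic islets, and the median over all genes in normal islets was 0.13. In the order NormalI-93, Normal2006 and Normal2007 the mean of the proliferation markers moved alike (7.91, 6.75 and 6.32), and that of the acinar markers did not (11.83, 12.50 and 8.77). The part of either in the spread was not tested. Lymphocyte markers (8 of 10 measured) averaged 8.17, 7.55 and 6.87 in the hyperplastic islets and 6.42 to 6.53 in the normal islets. On the same hyperplastic arrays the replication genes averaged 8.95, 8.94 and 8.97, and all 36 calls held with the lymphocyte mean as a covariate.

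**Figure D2:**
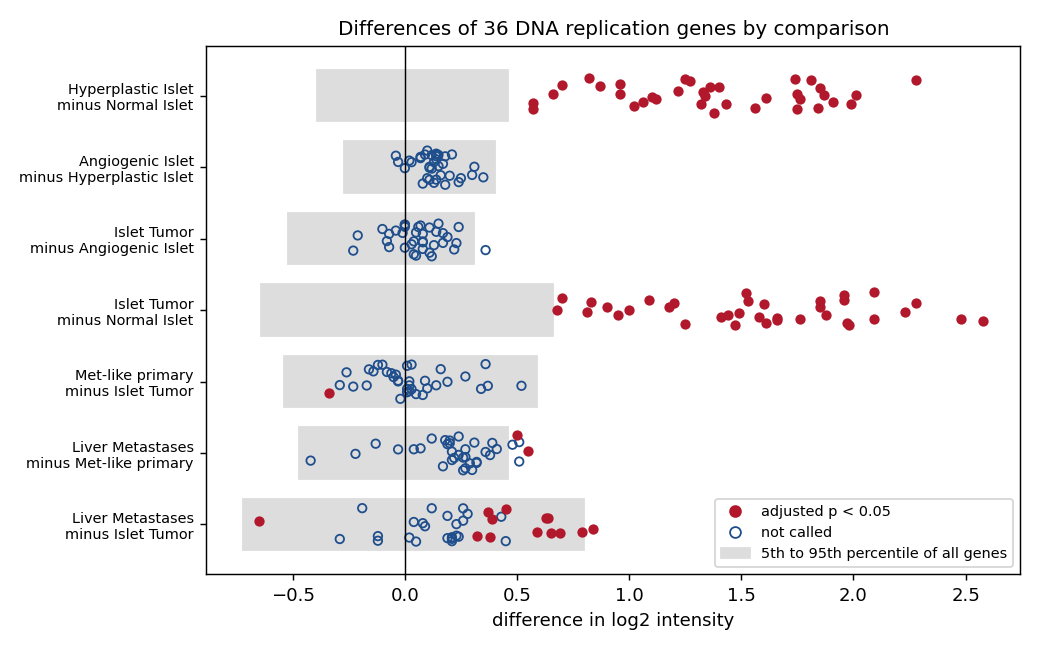
Difference in log2 intensity (horizontal axis) of each of the 36 DNA replication genes in 7 comparisons (rows), filled where the adjusted p was under 0.05, with the 5th to 95th percentile of all genes in grey. All 36 points are filled and above 0.5 in both comparisons with normal islets, and the other 5 comparisons hold 0 to 13 filled points.

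Angiogenic and hyperplastic islets (3 against 3 arrays), which differ by the ingrowth of vessels, differed little in these genes and gave no calls. The mean over the 36 genes was 9.07, 9.12 and 9.09 in angiogenic islets and 8.95, 8.94 and 8.97 in hyperplastic islets, without overlap and higher in the angiogenic array of each code. Of the 36 members 0 were called by limma, beside 2.29% of all genes called higher and 0.246% called lower (90.3% of calls higher, or 76.6% with median centring), and 0 had an unadjusted p under 0.05. The median difference was 0.13 log2 (range -0.04 to 0.35), and 33 of 36 were above 0, with a median over all genes of -0.04. The largest was that of Rrm2, with 9.59, 9.73 and 9.41 in angiogenic islets and 9.23, 9.27 and 9.19 in hyperplastic islets. All 3 angiogenic values lay above the hyperplastic ones. The difference of 0.35 had a 95% interval of -0.19 to 0.88 (adjusted p = 0.604). That interval uses the spread over all 6 groups, and the normal islets had the largest median member SD of them. With the compared arrays alone, or with the islet code as a block, 0 members were called too. Fibroblast markers, a list of 6 genes, averaged 10.31, 10.32 and 10.08 in angiogenic islets and 8.48, 8.39 and 8.48 in hyperplastic islets, and the part of such cells in these levels was not tested. Lymphocyte markers averaged 8.66, 8.26 and 6.38 in the angiogenic islets.

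Between islet tumours and angiogenic islets (5 against 3 arrays), 0 of 36 members were called, beside 3.09% of all genes called higher and 6.45% called lower. Higher genes were 32.4% of all calls, and 51.7% with median centring. The median difference was 0.06 log2 (range -0.23 to 0.36), and 1 member, Orc1, had an unadjusted p under 0.05. Orc1 had 6.29, 6.34, 6.14, 6.25 and 6.27 in islet tumours and 5.85, 6.0 and 6.21 in angiogenic islets, which overlapped (0.24 ± 0.10, adjusted p = 0.153). Pole had 8.91, 8.96, 8.88, 9.01 and 9.21 in islet tumours and 8.49, 8.75 and 8.69 in angiogenic islets, a difference of 0.36 with a 95% interval of -0.13 to 0.84 (adjusted p = 0.355). Orc6 had the most negative difference, with 9.66, 9.48, 9.27, 9.74 and 9.70 in islet tumours and 9.81, 9.77 and 9.81 in angiogenic islets (-0.23 ± 0.14, adjusted p = 0.311). Among the other replication factors 1 of 52 was called, the helicase Recql4 (0.28, adjusted p = 0.028).

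Against normal islets, islet tumours (5 against 3 arrays) had all 36 members called higher, beside 13% of all genes called higher and 16.1% called lower (44.7% of calls higher, or 33.9% with median centring). The median difference was 1.59 log2 (range 0.68 to 2.58), against -0.01 over all genes. This comparison shares the normal islets with that of hyperplastic against normal islets, so it is no second line of evidence. Pole had the largest difference, 5.98-fold (2.58 ± 0.23 log2, adjusted p = 3.5e-08), then Mcm3 (2.48 ± 0.25), Rrm2 (2.28 ± 0.23), Pola1 (2.23 ± 0.20), Mcm2 and Mcm6 (2.09 each). Tk1 (0.68 ± 0.10) and Gins4 (0.70 ± 0.11) had the smallest. Of the 52 other replication factors 40 were called higher, led by Cdc7 and Dna2 (2.05 each), Asf1b (2.45) and Chtf18 (1.43). The 4 called lower were Tk2 (-0.71), Pold4, a small polymerase delta subunit (-0.64), Rrm2b (-0.52) and the pyrimidine synthesis enzyme Cad (-0.29). Those 4 were named after their values were seen.

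**Figure D3:**
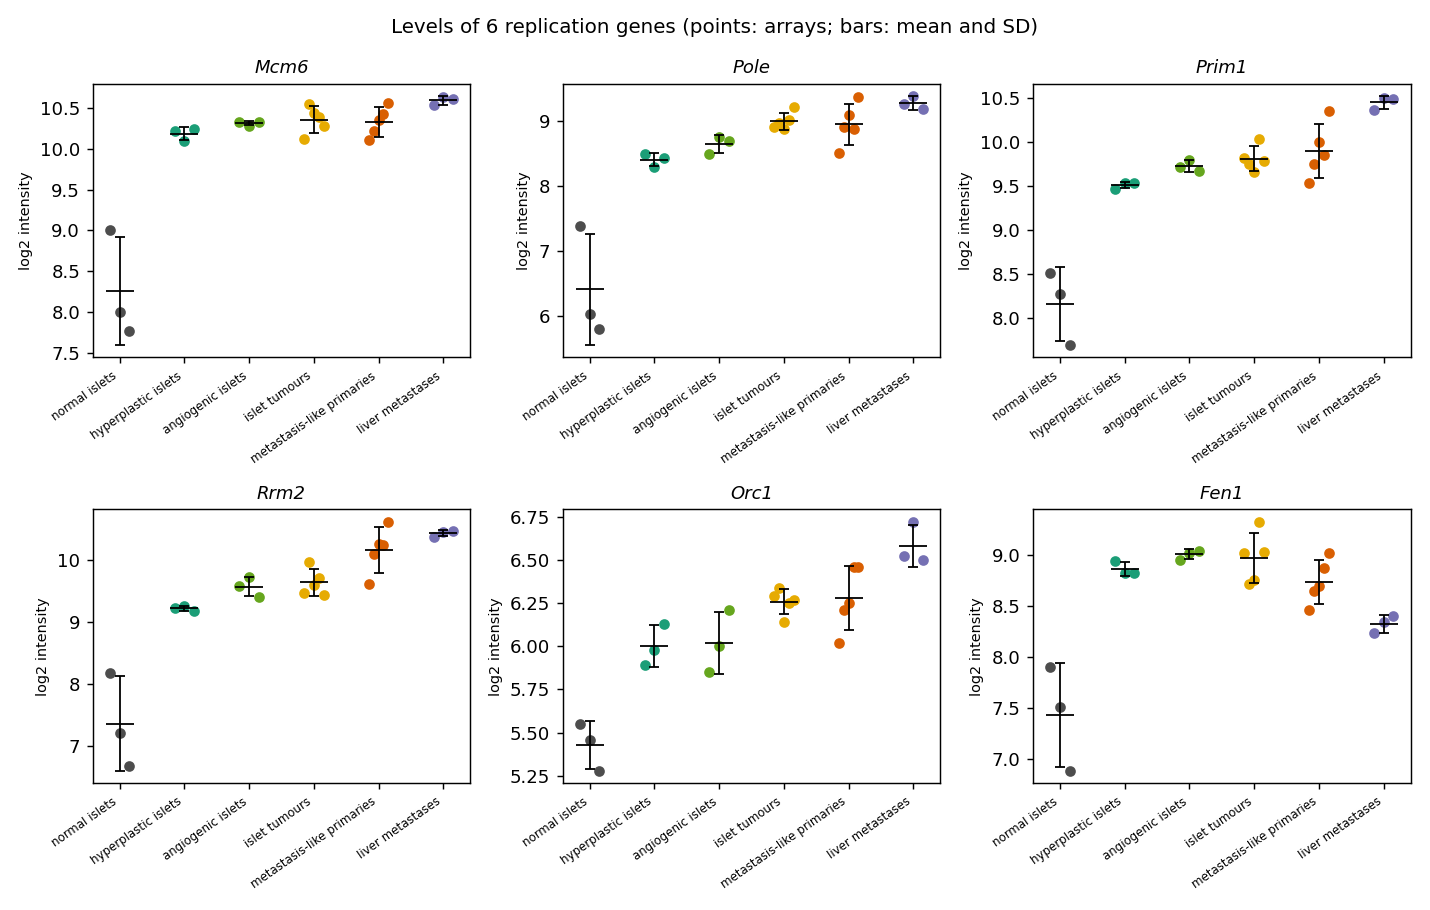
Log2 intensity (vertical axis, scaled per gene) of Mcm6, Pole, Prim1, Rrm2, Orc1 and Fen1 in the 6 tissue groups, with a point per array and a bar for the mean and SD. Every gene has its lowest points in normal islets. Mcm6, Pole, Prim1, Rrm2 and Orc1 have their highest means in liver metastases, where Fen1 stands at 8.23 to 8.40, below its values in all primary tumours.

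Between metastasis-like primaries and islet tumours (5 against 5 arrays), replication genes stayed close while many other genes differed. Of 36 members 0 were called higher and 1 lower, whereas 12.3% of all genes were called higher and 14.2% lower. The members' median difference was 0.01 log2, with a range of -0.34 to 0.52. Gins3, a GINS subunit, had 7.66, 7.86, 8.18, 8.01 and 8.10 in metastasis-like primaries and 8.16, 8.19, 8.23, 8.35 and 8.58 in islet tumours. The groups overlapped slightly, and Gins3 fell by 0.34 ± 0.11 (adjusted p = 0.0293). This call ended without either of the islet tumours III-8017 (adjusted p = 0.0565) and III-8024 (0.0931) and without either of the metastasis-like primaries I-9812 (0.0979) and II-648 (0.0679). Rfc5, a clamp loader subunit, had 9.76, 9.91, 9.82, 9.69 and 10.05 in metastasis-like primaries, all below the 10.09 to 10.15 of the islet tumours. It did not pass the test (-0.26 ± 0.10, adjusted p = 0.059). Rfc5 was called lower with the compared arrays alone (adjusted p = 0.0239), with quantile normalization (0.0449) and without III-8023 (0.0311). The same held with the dimmest genes left out (0.047) and with the acinar marker mean as a covariate (0.0455).

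The ribonucleotide reductase genes had the largest positive differences of this comparison. Rrm2 had 9.61, 10.10, 10.27, 10.24 and 10.62 in metastasis-like primaries and 9.48, 9.98, 9.60, 9.71 and 9.44 in islet tumours. The groups overlapped, and the difference of 0.52 ± 0.20 missed the threshold (adjusted p = 0.0569, 95% interval 0.11 to 0.94). Fitted on the compared arrays alone, it passed (adjusted p = 0.0385). Rrm1 had a difference of 0.37 ± 0.16 (adjusted p = 0.0861). Without the metastasis-like primary I-9812 2 members were called higher, and without the islet tumour II-649 1 was. Of the 52 other replication factors 6 were called higher and 2 lower. They were led by the folate enzyme Shmt1 (0.50 ± 0.08), Cad (-0.40 ± 0.08), the pyrimidine enzyme Umps (0.59 ± 0.13) and the polymerase epsilon subunit Pole3 (0.21 ± 0.07), with the clamp loading factor Chtf18 (-0.28 ± 0.10) as the other lower one. Of the 10 regulators, E2f2 (0.28 ± 0.10) and Myc (0.51 ± 0.19) were called higher and 1 was called lower. Rbl1 fell by 0.47 ± 0.12, with all 5 metastasis-like primaries (8.86 to 9.46) below all 5 islet tumours (9.49 to 9.71).

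The metastasis-like primaries were the tumour group with the widest spread of replication genes. The median member SD was 0.24 log2 there, against 0.13 over all genes in the same arrays and 0.14 for the members in islet tumours. I-9812 was the lowest of the 5 for 35 members (97.2%, against 18.4% of all genes), and III-8023 the highest for 32 (88.9%, against 18.2%). The mean of the 36 genes was 8.87 in I-9812, 9.10 in II-648, 9.20 in II-6413, 9.23 in III-8016 and 9.48 in III-8023, and the last of these exceeded all 3 metastases (9.39, 9.45 and 9.38). The proliferation markers had the same order, with 9.08, 9.36, 9.45, 9.68 and 9.95. The beta cell marker mean was lowest in I-9812 (8.63), with 8.90 in III-8023 and 9.16 to 9.23 in the other 3, and the acinar mean was 10.59 in III-8016 and 12.30 to 12.71 in the other 4. Whether any of these marker levels had a part in the spread was not tested.

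Between liver metastases and metastasis-like primaries (3 against 5 arrays), 2 of 36 members were called higher and 0 lower, beside 7.8% of all genes called higher and 7.87% called lower. That share of members is no larger than the share of all genes. At an unadjusted p under 0.05, 11 of 36 members were higher and 1 lower, beside 2707 and 2777 of all 19938 genes. The median difference was 0.26 log2, and 32 of 36 were above 0, against a median of -0.01 over all genes. Prim1, the small primase subunit, stood at 10.37, 10.50 and 10.49 in liver metastases and between 9.53 and 10.36 (median 9.86) in metastasis-like primaries. The metastases lay just above the highest primary, and Prim1 rose by 0.55 ± 0.16 (adjusted p = 0.0185). Mcm10 rose by 0.50 ± 0.13 (adjusted p = 0.00873), with 8.69, 8.85 and 8.76 in liver metastases and 7.98, 8.14, 8.19, 8.45 and 8.56 in metastasis-like primaries. The count was 0 without the metastasis I-9821, 1 without I-9822 and 9 without the primary III-8023.

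Between liver metastases and islet tumours (3 against 5 arrays), 12 of 36 members were called higher and 1 lower, beside 17.3% of all genes called higher and 19.3% called lower. The median difference was 0.23 log2, with a range of -0.65 to 0.84, against -0.03 over all genes. All 3 metastases also carried high hepatocyte and low acinar marker levels, and a part of liver RNA in these differences was not tested. With the acinar marker mean as a covariate, the calls of Mcm4 (adjusted p = 0.0975), Mcm10 (0.0651), Orc1 (0.155) and Fen1 (0.133) ended. Their differences were then 0.66, 0.41, 0.26 and -0.40 log2. The acinar mean was 9.59 to 10.60 in liver metastases and 11.78 to 12.34 in islet tumours, without overlap. The covariate can therefore end a call through lost precision alone. By role, calls numbered 2 of 11 helicase, 2 of 5 licensing, 2 of 6 polymerase, 2 of 5 clamp, 2 of 2 strand joining, 3 of 5 nucleotide and 0 of 2 chromatin assembly genes, and differences between roles were not tested. The count of higher members fell to 7 without the metastasis I-9821 and to 6 without I-9822.

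The reductase genes stood higher in the metastases than in islet tumours. Against metastasis-like primaries, Rrm1 (0.32 ± 0.18, adjusted p = 0.274) and Rrm2 (0.27 ± 0.23, adjusted p = 0.506) overlapped and were not called. Rrm2 had 10.38, 10.46 and 10.47 in liver metastases and 9.48, 9.98, 9.60, 9.71 and 9.44 in islet tumours, with a gap between the groups. That was a 1.73-fold rise (0.79 ± 0.23 log2, adjusted p = 0.00938). Rrm1 had 11.21, 11.21 and 11.05 in liver metastases and 10.47, 10.55, 10.01, 10.58 and 10.72 in islet tumours, a rise of 0.69 ± 0.18 (adjusted p = 0.00445). Dut, which keeps uracil out of DNA, rose by 0.39 ± 0.11 (adjusted p = 0.00869, and 0.0589 without I-9822). Tyms (0.19 ± 0.14, adjusted p = 0.31) and Tk1 (0.21 ± 0.10, adjusted p = 0.106) did not pass. The result for Tk1 depended on the probe set. Its second one averaged 8.16 in liver metastases and 7.80 in islet tumours. With the mean of all probe sets Tk1 passed (0.29 log2, adjusted p = 0.0451), as it did with each array centred per chromosome (0.0479). With the tumour prefix as a block, Tk1 (0.0371) and Tyms (0.0157) both passed.

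Strand joining genes moved in opposite directions. Lig1 had 10.38, 10.46 and 10.27 in liver metastases and 9.54, 9.76, 9.69, 9.74 and 9.86 in islet tumours, a rise of 0.65 ± 0.14 log2 with the smallest adjusted p of the members here (0.00101). Fen1, which removes the flap before the nick is joined, had 8.23, 8.34 and 8.40 in liver metastases and 9.02, 8.71, 8.75, 9.32 and 9.03 in islet tumours. All metastases lay below all islet tumours, and Fen1 fell by 0.65 ± 0.17 (adjusted p = 0.00397). With the acinar covariate the difference was -0.40 (adjusted p = 0.133). Against metastasis-like primaries, where the values were 8.46, 8.64, 8.69, 8.87 and 9.02, the difference was -0.42 ± 0.17 (adjusted p = 0.1).

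Primase and clamp genes rose as well. Prim1 rose by 0.64 ± 0.16 log2 (adjusted p = 0.0025), with 10.37 to 10.50 in liver metastases and 9.66 to 10.04 in islet tumours. Prim2 rose by 0.37 ± 0.14 (adjusted p = 0.0349), a call lost without any 1 of the islet tumours I-9811 (0.0874) and II-6415 (0.0603) and the metastases I-9820 (0.0685), I-9821 (0.138) and I-9822 (0.0579). Pcna rose by 0.45 ± 0.13 (adjusted p = 0.00878, and 0.0502 without I-9822), with 11.52, 11.54 and 11.69 in liver metastases and 11.01, 11.20, 11.11, 11.08 and 11.24 in islet tumours. Rfc4 had the largest difference of all members (0.84 ± 0.21, adjusted p = 0.00319), with 9.92, 9.98 and 9.86 in liver metastases and 8.53, 9.35, 9.44, 8.76 and 9.32 in islet tumours. Its low tumour values belong to I-9811 and III-8017. Rfc2, Rfc3 and Rfc5 were not called (0.05, 0.19 and -0.29).

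Helicase and licensing genes gave 4 further calls. Gins1 rose by 0.59 ± 0.20 log2 (adjusted p = 0.0244), a call lost without the islet tumour I-9811 (0.0605) or the metastases I-9821 (0.0705) or I-9822 (0.0841). Mcm4 rose by 0.63 ± 0.22 (adjusted p = 0.0317), and this ended with the acinar covariate (0.0975) or without any 1 of 5 arrays (I-9811, III-8017 and each metastasis, 0.0667 to 0.0918). Its ring partners had differences of 0.04 to 0.26 and were not called. Mcm10 rose by 0.38 ± 0.13 (adjusted p = 0.0208, with 0.0651 under the acinar covariate, 0.0881 without I-9821 and 0.0544 without I-9822). Orc1 rose by 0.32 ± 0.10 (adjusted p = 0.0186, with 0.155 under the acinar covariate and 0.12 without I-9821). Of the 13 calls, those of Prim1, Rfc4, Lig1, Rrm1 and Rrm2 held in all alternatives that were run.

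Among the 52 other replication factors, 20 were called higher in liver metastases than in islet tumours and 4 lower. Shmt1 (0.86 ± 0.09), the histone chaperone Asf1a (0.66 ± 0.10), Pold4 (-0.86 ± 0.14) and the ribonuclease H2 subunit Rnaseh2c (-0.44 ± 0.07) had the smallest adjusted p. The other 2 called lower, named after their values were seen, were Cad (-0.36 ± 0.09) and Tk2 (-0.28 ± 0.11). Between liver metastases and metastasis-like primaries 15 were called higher and 2 lower, led by Rnaseh2c (-0.35 ± 0.07), the single-strand binding subunit Rpa3 (0.86 ± 0.18), the CTP synthase gene Ctps (0.56 ± 0.12) and Asf1a (0.45 ± 0.10), and with Pold4 (-0.60 ± 0.14) as the other lower one. Of the regulators, E2f3 (0.63 ± 0.11), E2f2 (0.44 ± 0.11), Rb1 (0.50 ± 0.14) and Mybl2 (0.33 ± 0.13) rose in liver metastases relative to islet tumours. E2f1 fell by 0.35 ± 0.12 there, with 8.51, 8.50 and 8.46 in liver metastases and 8.69 to 8.96 in islet tumours.

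Several members on the same chromosome shared low values in single tumours, a pattern noticed after the values had been seen. It was described as each gene's deviation from its median over the 13 tumour and metastasis arrays. Mcm4, Cdc45, Rfc4 and Chaf1b lie on chromosome 16. In the islet tumour I-9811 these 4 had deviations of -0.91 to -0.17 log2 (median -0.81), against a median of -0.20 for the 30 members on chromosomes other than 16 and 19. Chaf1b, at -0.17 in I-9811, was not below that median. In the islet tumour III-8017 the 4 genes had -0.75 to -0.37 (median -0.65), against -0.01. The median over 471 genes of chromosome 16, with the dimmest 25% of all genes left out, was -0.27 in I-9811 and -0.24 in III-8017, and no lower than 0 in any other of the 13 arrays. Umps, the 1 other replication factor of the list on that chromosome, deviated by -1.14 in I-9811 and -0.78 in III-8017, and also by -0.48 in II-649 and -0.49 in III-8024. Without both tumours, an alternative chosen after seeing the data, the difference between liver metastases and islet tumours was 0.32 log2 for Mcm4 (adjusted p = 0.265) and 0.55 for Rfc4 (adjusted p = 0.0336). The calls of Gins1 on chromosome 2 (0.0612) and Prim2 on chromosome 1 (0.128) ended in that alternative too. Chromosome 14, which holds 0 members, had medians of -0.28 in II-649 and -0.30 in II-6415. Of the other replication factors there, Wdhd1 deviated by -0.81 and -0.93, Supt16 by -0.71 and -0.72, and Rnaseh2b by -0.49 and -0.60.

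Fen1 and Pola2 lie on chromosome 19, where the liver metastases stood low as a group. The median over 510 genes of that chromosome was -0.35, -0.33 and -0.28 in the 3 metastases, while the 30 members on chromosomes other than 16 and 19 had medians of 0.20, 0.25 and 0.18. Fen1 deviated by -0.48, -0.37 and -0.31 and Pola2, the regulatory subunit of polymerase alpha, by -0.22, -0.15 and -0.11. Pold4 and Rnaseh2c, the 2 other replication factors of the list on chromosome 19, deviated by -0.71 to -0.65 and by -0.38 to -0.31 in the same arrays. With each array centred per chromosome, also chosen after seeing the data, Fen1 differed by -0.38 between liver metastases and islet tumours (adjusted p = 0.0834). Copy number was not measured here, and its part in these values was not tested.

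**Figure D4:**
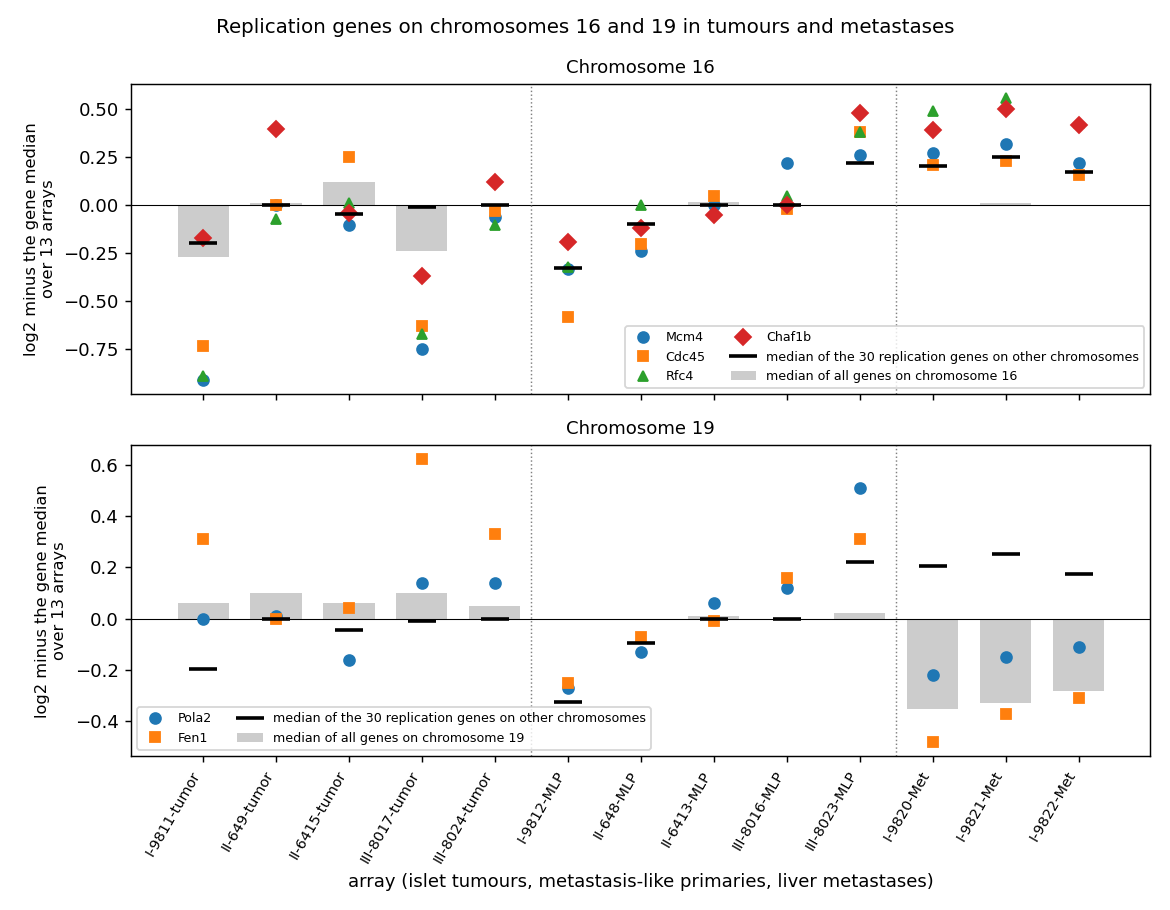
Deviation in log2 of the members on chromosome 16 (upper panel) and chromosome 19 (lower panel) from each gene's median over the 13 tumour and metastasis arrays (horizontal axis), with black lines for the median of the 30 members on other chromosomes and grey bars for the median of all genes on the chromosome, the dimmest 25% of genes left out. Mcm4, Cdc45 and Rfc4 lie between -0.91 and -0.63 in I-9811 and III-8017, and Fen1 and Pola2 lie below 0 in the 3 metastases while the black lines lie above 0.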

How the data were processed

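Total RNA of 22 samples was hybridised to Affymetrix Mouse Gene 1.0 ST arrays. The authors processed the scans with aroma.affymetrix, per the series text, and deposited log2 intensities for 35511 probe sets. Which release, chip definition, background, normalization and summarization steps they used is not stated there. The platform annotation gave 1 symbol to 21789 probe sets, several to 1621 (left out) and none here to 12101. The probe set with the highest mean over all arrays stood for each of 19938 genes.

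Groups follow the tissue labels. A linear model with 6 group means was fitted to all genes with limma 3.58.1 in R 4.3.3, and its moderated test was adjusted by Benjamini-Hochberg over all genes within each of 7 comparisons. A gene was called at an adjusted p under 0.05. The steps were run on simulated data with the same SD per gene in every group and with independent arrays. That simulation held neither the wider spread of the normal islets nor the pairing of islets by code. Python 3.11.15, pandas 2.3.3 and matplotlib 3.10.9 made the descriptions and figures.

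The members and lists were chosen with earlier results of these data known. All members were measured. Named were members called, those with the largest and smallest difference, and up to 4 other replication genes with the smallest adjusted p per comparison. Genes of same-coded normal and hyperplastic islets deviated together (r 0.197 to 0.448), as did those of hyperplastic and angiogenic islets (0.353 to 0.479). Same-coded normal and angiogenic islets did so only weakly (0.057 to 0.144, against -0.09 to 0.039 for other codes). The codes thus pair normal with hyperplastic islets and hyperplastic with angiogenic islets. Tumour prefixes did not (-0.184 to 0.206). Alternatives were a replicate block, the compared arrays alone, quantile normalization, median centring, a filter on dim genes, the mean of all probe sets, array weights, trended and robust variance, acinar or lymphocyte markers as a covariate, and leaving out each array.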

Additional observations from a re-analysis of the deposited data

Results flagged for a closer look

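Of 72 sets of 5 arrays (36 genes in islet tumours and in metastasis-like primaries), 2 held an array far from the others by Dixon's criterion, which chance meets in about 1 in 20 groups. Mcm3 was lowest at 9.49 in the islet tumour I-9811, where the nearest other tumour had 9.80, a gap of 0.718 of the group's range. Chaf1b was highest at 9.28 in the metastasis-like primary III-8023, where the nearest other had 8.80, a gap of 0.721 of the range.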

How the results depend on the processing

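Over all alternatives, 4681 member results kept their direction and side of the threshold, 34 lost a call, 66 gained one and 0 reversed. In both comparisons with normal islets 36 members were called throughout, or 35 where the filter on dim genes left 1 out. Angiogenic against hyperplastic islets and islet tumours against angiogenic islets gave 0 throughout. For metastasis-like primaries against islet tumours, members called higher numbered 1 with the compared arrays alone, without dim genes, with the acinar covariate or centred per chromosome, and 0 to 2 with 1 array left out. Those called lower numbered 2 with the compared arrays alone, quantile normalization, without dim genes or with the acinar covariate, 0 without I-9811 and III-8017, and 0 to 2 with 1 array left out. For liver metastases against metastasis-like primaries, 5 were higher with median centring, 9 with array weights and 0 to 9 with 1 array left out, and 1 was lower with the compared arrays alone. For liver metastases against islet tumours, 6 to 13 were higher with 1 array left out. There 2 were lower with the compared arrays alone, quantile normalization or without dim genes, and 0 with the acinar covariate or centred per chromosome. The cause of these shifts was not tested. Centring per chromosome and leaving out both tumours were chosen after seeing the data.

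With the replicate block, 2 members were higher in metastasis-like primaries than in islet tumours. It gave 13 higher in liver metastases than in metastasis-like primaries, and 17 higher in the metastases when set against islet tumours. The tumour prefixes share only a number. All 3 metastases carry prefix I, and the only primary tumours with it are I-9811 and I-9812. The counts of 13 and 17 therefore rest largely on those arrays, and I-9812 was the lowest metastasis-like primary for 35 members. Among the paired islets the block changed no member's call.

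Counts over all genes moved more. Hyperplastic against normal islets gave 832 lower genes, with 424 to 724 when 1 array was left out, 385 with the lymphocyte covariate and 1277 with median centring. Angiogenic against hyperplastic islets gave 456 higher and 49 lower, with 733 and 197 under array weights, 114 lower with median centring, 84 lower with the replicate block, 30 lower centred per chromosome, and 261 to 798 higher and 12 to 71 lower with 1 array left out. Islet tumours against angiogenic islets gave 617 higher and 1286 lower, with 34 and 287 under the lymphocyte covariate, 177 and 591 with the compared arrays alone, 1176 higher with median centring, and 169 to 766 higher and 563 to 1462 lower with 1 array left out. Liver metastases against metastasis-like primaries gave 1556 higher and 1570 lower, with 1013 and 787 under the acinar covariate, 2704 and 2673 with array weights, and 939 to 1691 and 966 to 1724 with 1 array left out. With 3 to 5 arrays a group, the number of arrays limits the precision.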
